A study of Mus musculus with 2 samples.

Results

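Cytochrome c oxidase, complex IV of the respiratory chain, has a core encoded in mitochondrial DNA and a set of small nuclear subunits around it. Several nuclear subunits exist as pairs of genes. A general form, also called the liver form, is made in most tissues, and a heart and muscle form is made mainly in striated muscle and, for some subunits, in brown fat. In rodent muscle the heart and muscle forms are known to gain on the general forms around and after birth. The genes described here are 10 of the 43346 genes of the deposited tables. They were chosen by symbol with no cut on a measured value, though with earlier results of these data known. They are Cox4i1 and Cox4i2, Cox6a1 and Cox6a2, Cox7a1, Cox7a2 and Cox7a2l, Cox8a and Cox8b, and Ndufa4. All 10 symbols had a row in both gene tables, and their 19 transcripts had rows in both transcript tables.

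RNA came from skeletal muscle of newborn B6NCrl mice, taken at postnatal day 0, with no treatment or genetic change named in the labels. The 2 libraries, biological replicates 1 and 2, were each made by a SmartSeq protocol from 13 pg of total RNA, equal by the labels to 1 cell, from a portion of tissue of 1 pup. They are libraries of tissue RNA and not of isolated cells, sex was not collected, and both tissue records name the same donor entry. There is 1 group, so the values below describe newborn muscle and the spread between its libraries, in which animal, tissue portion and library cannot be told apart. With n = 2 no test between conditions exists, and a difference larger than 2 SD with the same sign in both libraries is given as a description.

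The tables held 32103374 expected counts for replicate 1 and 38977618 for replicate 2, an expected count being an estimated number of reads per gene. Levels are in TPM, a transcript abundance scaled to a fixed sum per library, which adjusts for the length of each RNA. Skeletal muscle fibre markers were detected for 8 of 8 genes in both libraries and took 14.3% and 16.7% of TPM. Spike-in RNAs, which share the TPM scale with the genes, took 9.44% in replicate 1 and 4.54% in replicate 2.

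The promoters of the COX7A and COX8 pairs are shown because each pair sets a muscle form beside a general form, and because they differ in CpG dinucleotides. Each run is the 250 bases before the RefSeq start of the gene on GRCm38.p6, 5′ to 3′ on the strand of the gene, and capitals mark each CG dinucleotide. Cox7a1, a heart and muscle form, lies on the plus strand with its window at chr7:30183921-30184170. Cox7a2, its general partner, lies on the minus strand with its window at chr9:79759854-79760103. Cox8b, a heart and muscle form, is on the minus strand at chr7:140900447-140900696, and Cox8a, its general partner, on the minus strand at chr19:7217617-7217866.
Cox7a1: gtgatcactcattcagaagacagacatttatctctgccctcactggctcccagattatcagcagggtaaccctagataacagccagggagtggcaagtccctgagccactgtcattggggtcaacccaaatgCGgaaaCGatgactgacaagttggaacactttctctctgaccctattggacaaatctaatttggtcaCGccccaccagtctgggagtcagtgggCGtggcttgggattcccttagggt
Cox7a2: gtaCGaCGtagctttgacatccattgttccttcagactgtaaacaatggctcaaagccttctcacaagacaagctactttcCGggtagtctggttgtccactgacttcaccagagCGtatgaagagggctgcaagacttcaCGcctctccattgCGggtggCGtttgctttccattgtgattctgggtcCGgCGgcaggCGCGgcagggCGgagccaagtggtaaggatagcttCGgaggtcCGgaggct
Cox8b: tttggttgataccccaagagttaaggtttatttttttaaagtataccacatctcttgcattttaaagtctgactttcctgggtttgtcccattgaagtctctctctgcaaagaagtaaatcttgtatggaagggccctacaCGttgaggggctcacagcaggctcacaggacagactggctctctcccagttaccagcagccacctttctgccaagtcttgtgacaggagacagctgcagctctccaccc
Cox8a: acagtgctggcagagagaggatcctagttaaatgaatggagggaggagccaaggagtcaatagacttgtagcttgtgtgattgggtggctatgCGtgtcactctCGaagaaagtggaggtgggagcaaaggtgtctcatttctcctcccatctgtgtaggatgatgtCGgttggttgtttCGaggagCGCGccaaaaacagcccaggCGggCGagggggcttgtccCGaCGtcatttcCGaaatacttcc

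Promoter windows were matched for 7 of the 10 genes and not for Cox4i1, Cox4i2 and Cox6a2, so of the muscle forms those of Cox7a1 and Cox8b could be read. They held 4 CG dinucleotides in Cox7a1 and 1 in Cox8b. Those of the general forms held 14 in Cox7a2, 11 in Cox8a and 26 in Cox6a1. The median over 32851 RefSeq promoter windows of the same length was 6, with quartiles at 2 and 16. Of these windows 7.87% had fewer than Cox8b and 90.4% had fewer than Cox6a1. The windows of Cox7a1, Cox8a and Cox7a2 lay between the quartiles, with 37.8%, 64.4% and 70.6% of windows below them. Windows of Ndufa4 and Cox7a2l held 10 and 13. The E-box letters CANNTG, searched on both strands, occurred once in each of Cox7a1, Cox7a2, Cox7a2l, Cox8a and Cox8b, as they did at least once in 66.2% of all windows. The letters GCGCATGC, a core of sites of the factor NRF1, were found in Cox6a1, where its 2 matches on opposite strands overlap, and in 2.26% of all windows. A match describes the letters and not binding.

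A gene counted as detected in a library with 5 or more expected counts and a level of 1 TPM or more. In both libraries this held for 9 of the 10 genes, and for 4356 of all 43346 genes, or 10.05%. The exception was Cox4i2. Together the 10 genes made up 0.495% of the TPM sum of replicate 1 and 0.817% of that of replicate 2. Of expected counts they made up 0.1997% and 0.300%. By mean level the order was Ndufa4, Cox6a2, Cox4i1, Cox8b, Cox6a1, Cox8a, Cox7a2, Cox7a1 and Cox7a2l. Of the 8 pairs of neighbours in this order, 0 differed by more than 2 SD, so the order of neighbours is not settled by these libraries.

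**Figure D1:**
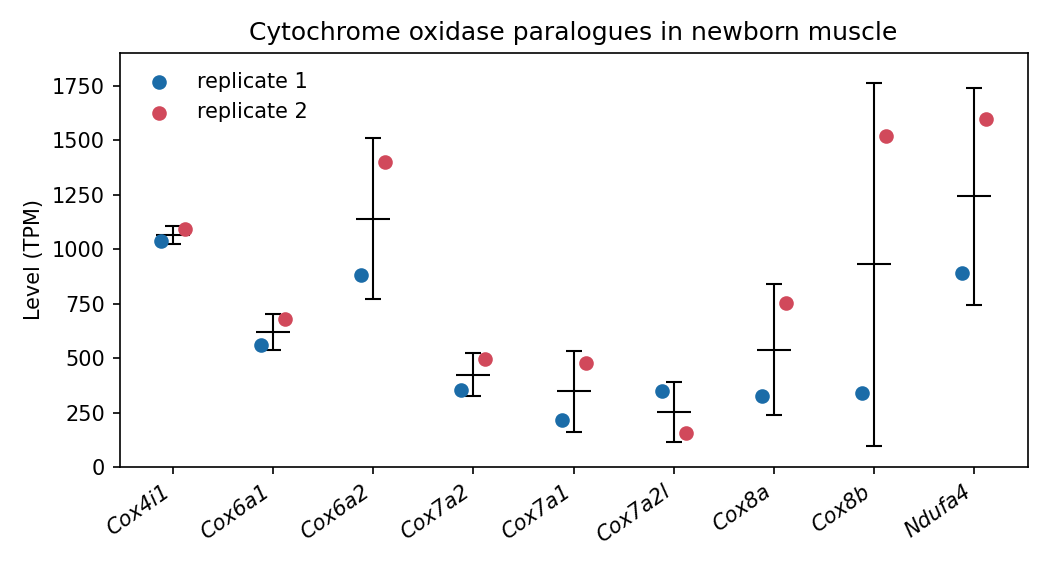
Level in TPM (vertical axis) of the 9 detected genes, with a point for each library, a dash for the mean and bars for 1 SD (n = 2). Cox4i1 lies at 1036 and 1093 TPM, while Cox8b spans 341 to 1520, and Cox7a2l is the gene whose replicate 1 lies above replicate 2.

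COX4 is a subunit that holds a site of regulation by ATP, and in the newborn muscle libraries its general form was the one detected. Cox4i1 (chromosome 8, 120668222 to 120674207) had 1036 TPM in replicate 1 and 1093 TPM in replicate 2, a mean of 1065 ± 40.3. This was the closest agreement between libraries of the 9 detected genes. It ranked 113 among 6350 detected genes in replicate 1 and 108 among 6949 in replicate 2. Cox4i2 (chromosome 2, 152754173 to 152765037), the form known from lung and from cells short of oxygen, had 0 counts in both libraries. A count of 0 allows up to 3 counts, or 0.195 TPM in replicate 1 and 0.152 TPM in replicate 2. By counting error alone, Cox4i1 was then at least 5318-fold higher than Cox4i2 in replicate 1 and at least 7185-fold higher in replicate 2. On the same allowance the share of Cox4i2 in the pair could be up to 0.0188% and 0.0139%. These limits cover counting error and not RNA lost before amplification. At this input Ppargc1a, picked after its values were seen, had 33.4 TPM in replicate 1 and 0 in replicate 2. The level of Cox4i2 in the tissue may therefore lie above these limits.

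COX6A gave more heart and muscle form than general form in both libraries. Cox6a2 (chromosome 7, 128205435 to 128206387), the heart and muscle form, had 879 TPM in replicate 1 and 1402 TPM in replicate 2, a mean of 1140 ± 370. Cox6a1 (chromosome 5, 115345642 to 115348981), the general form, had 560 and 678 TPM, a mean of 619 ± 83.3. Cox6a2 lay above both values of Cox6a1 in each library, so the levels did not overlap. The share of Cox6a2 in the pair was 61.1% (95% interval 60.4 to 61.8) in replicate 1 and 67.4% (66.9 to 67.9) in replicate 2, a mean of 64.2 ± 4.47%. The log2 ratio of Cox6a2 to Cox6a1 was 0.85 ± 0.28, beyond 2 SD and the one pair of the 3 for which this held in TPM. Intervals here are Wilson intervals of the count share carried over to the length-adjusted share, and they cover counting error only, since reads after amplification are not separate molecules. Expected counts gave 65.0% and 71.0%, so this pair read the same way with and without length adjustment.

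COX7A was the pair in which the muscle form did not exceed the general form. Cox7a1 (chromosome 7, 30184144 to 30186078), the heart and muscle form, had 215 TPM in replicate 1 and 479 TPM in replicate 2, a mean of 347 ± 187. Cox7a2 (chromosome 9, 79755361 to 79759878), the general form, had 353 and 495 TPM, a mean of 424 ± 100.2. The ranges of the 2 genes overlapped across libraries, and within each library Cox7a2 had the higher value. The share of Cox7a1 was 37.9% (36.5 to 39.3) in replicate 1 and 49.2% (48.3 to 50.1) in replicate 2. The interval of replicate 2 holds an even split. The log2 ratio of Cox7a1 to Cox7a2 was −0.38 ± 0.47, within 2 SD.

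Read counts of this pair gave another picture from TPM, because the RNAs differ in length. The tables give Cox7a1 a length of 364 bases and Cox7a2 a length of 754. Cox7a1 had 1392 and 3970 expected counts against 5644 and 10128 for Cox7a2, a count share of 19.8% and 28.2%. The mean log2 ratio of counts was −1.68 ± 0.47, beyond 2 SD. GENCODE M21, a later annotation than the M4 release behind the tables, lists 393 bases for Cox7a1 and 659 for Cox7a2. With those lengths, an alternative chosen after seeing the data, the share of Cox7a1 was 31.96% in replicate 1 and 42.7% in replicate 2.

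Cox7a2l (chromosome 17, 83501918 to 83517330) belongs to the same family by sequence and is known as an assembly factor that joins complex III and complex IV in supercomplexes. It had 348 TPM in replicate 1 and 155 TPM in replicate 2, a mean of 252 ± 136, and ranked 384 and 832 among detected genes. Replicate 1 was the higher, unlike for the other 8 detected genes. Of the TPM of the 3 COX7A family genes, Cox7a2l held 38.0% in replicate 1 and 13.7% in replicate 2. Cox7a1 held 23.5% and 42.4% of the same sum.

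COX8 was split nearly evenly in replicate 1 and in favour of the muscle form in replicate 2. Cox8b (chromosome 7, 140898945 to 140900446), the heart and muscle form, also known from brown fat, had 341 TPM in replicate 1 and 1520 TPM in replicate 2, a mean of 931 ± 834. Its rank went from 398 in replicate 1 to 78 in replicate 2. Cox8a (chromosome 19, 7215153 to 7217616), the general form, had 325 and 751 TPM, a mean of 538 ± 301. The share of Cox8b was 51.2% (49.9 to 52.5) in replicate 1 and 66.9% (66.4 to 67.5) in replicate 2. The interval of replicate 1 holds an even split. The log2 ratio of Cox8b to Cox8a was 0.54 ± 0.67, within 2 SD.

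Length decided which member of the COX8 pair was ahead in replicate 1. Cox8b, with 362 bases, had 2189 and 12494 expected counts, and Cox8a, with 545 bases, had 3540 and 10461. The count share of Cox8b was 38.2% in replicate 1 and 54.4% in replicate 2, on either side of an even split. In TPM the length used was the annotated length less 99 bases, and this cut takes a larger part of the shorter Cox8b. Dividing counts by the full length gave 48.2% and 64.3%.

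**Figure D2:**
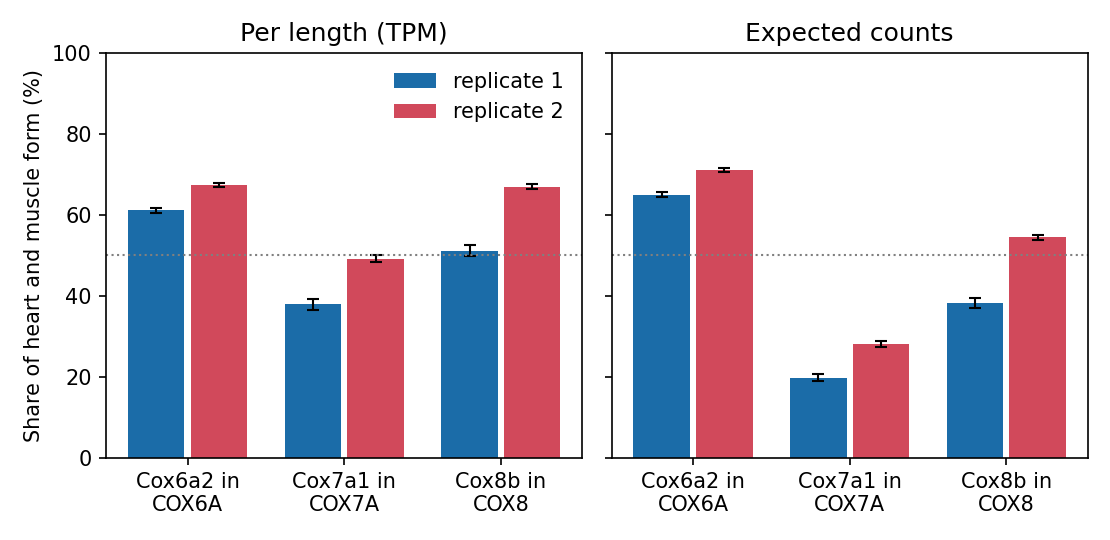
Share of the heart and muscle form in each pair, in percent, from TPM (left) and from expected counts (right), with a bar for each library and 95% Wilson intervals for counting error. The dotted line marks an even split. The share of Cox6a2 lies above the line in both panels, that of Cox7a1 below it, and that of Cox8b in replicate 1 changes from 51.2% by TPM to 38.2% by counts.

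Over the 3 pairs with a muscle form, the muscle forms Cox6a2, Cox7a1 and Cox8b summed to 1435 TPM in replicate 1 and 3402 TPM in replicate 2. The general forms Cox6a1, Cox7a2 and Cox8a summed to 1238 and 1923 TPM. The share of the muscle forms was 53.7% and 63.9%, a mean of 58.8 ± 7.21%. By expected counts it was 49.9% and 57.2%. The muscle share was higher in replicate 2 in each of the 3 pairs, by 6.32 percentage points for COX6A, 11.3 for COX7A and 15.8 for COX8.

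The corresponding changes of the log2 ratio of muscle to general form from replicate 1 to replicate 2 were 0.40, 0.67 and 0.95. Spike-ins with a mean of 1000 to 10000 counts, whose mixtures are named alike for both libraries, had an SD between libraries of 0.95 log2 (10 spike-ins), and those above 10000 counts an SD of 0.49 (13 spike-ins). Each of the 3 changes was no larger than the SD of single spike-ins of 1000 to 10000 counts. That range holds the mean counts of Cox6a1, Cox7a1, Cox7a2, Cox8a and Cox8b, while Cox6a2 had a mean of 18238. Each change is a difference between 2 genes, so the SD of single spike-ins is not a like measure. The technical part of the changes was not tested. The intervals of the shares do not cover the sampling of molecules at this input.

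Ndufa4 (chromosome 6, 11900292 to 11907497) was first described as a subunit of complex I and is now placed in complex IV. It had 891 TPM in replicate 1 and 1595 TPM in replicate 2, the highest mean of the 10 genes at 1243 ± 498. It ranked 138 in replicate 1 and 73 in replicate 2. Its paralogue Ndufa4l2, known from cells short of oxygen, had 0 counts in both libraries, which at this input does not show absence.

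Relative to the median gene, 8 of the 9 detected genes were higher in replicate 2 and 1, Cox7a2l, was higher in replicate 1. Among 10002 genes with at least 5 counts in 1 library or both, 53.4% were higher in replicate 2, and among 1190 genes with a mean of at least 100 TPM, a floor that all 9 members pass and that was chosen after seeing the data, 54.6% were. The median of the 9 log2 ratios of replicate 2 to replicate 1 was 0.75, against 0.16 over all genes tested. These are values of 1 library against 1, with no replicate check.

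Past 2-fold in replicate 2, the share of members was close to that of all genes and above that of genes of at least 100 TPM. Cox8b, Cox8a and Cox7a1 were higher in replicate 2 by at least 2-fold, at log2 ratios of 2.23, 1.28 and 1.22. These are 3 of 9, against 35.4% of all genes tested and 18.8% of genes of at least 100 TPM. Cox7a2l was higher in replicate 1 by at least 2-fold, at a log2 ratio of replicate 1 to replicate 2 of 1.09, which is 1 of 9 against 28.7% of all genes tested. All genes of 1000 to 10000 mean counts had an SD of 1.90 log2 between the libraries (3130 genes).

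Scaling by spike-ins rather than by the median gene moved the count. Then 8 of 9 members were higher in replicate 2 by at least 2-fold, against 51.7% of all genes tested, and Cox7a2l stood at a log2 ratio of replicate 1 to replicate 2 of 0.18. The direction of the 9 genes was the same under both scalings, under TMM scaling of counts and with no centring.

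**Figure D3:**
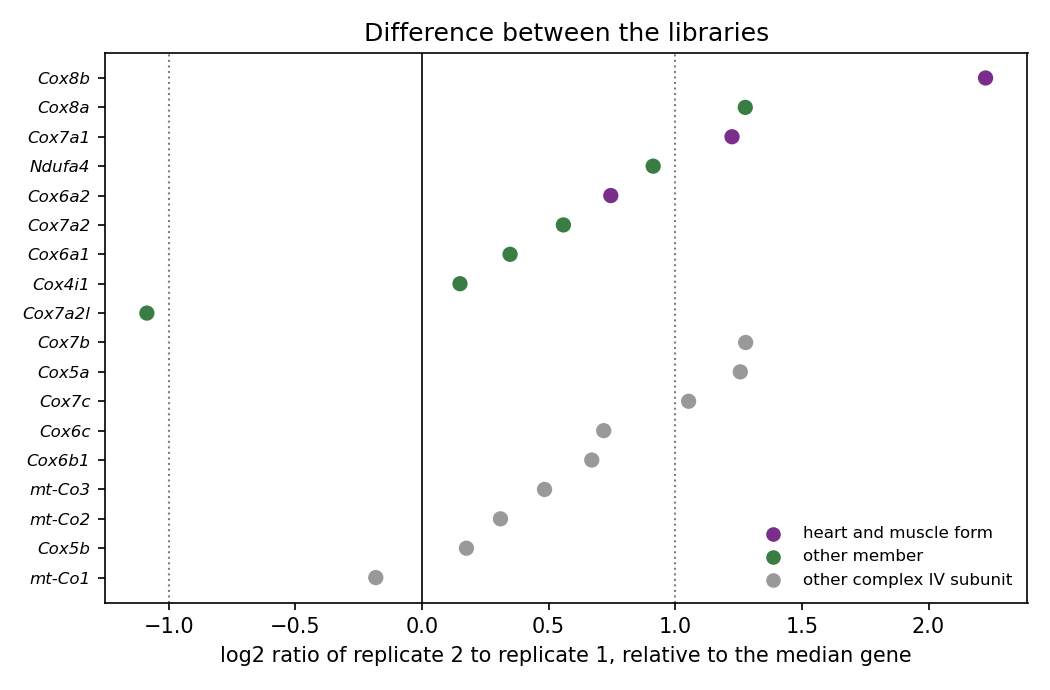
Log2 ratio of replicate 2 to replicate 1 relative to the median gene (horizontal axis) for the 9 detected genes and 9 other subunits of complex IV detected in both libraries, a point per gene, with dotted lines at 2-fold. Cox8b stands farthest to the right at 2.23 and Cox7a2l farthest to the left.

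Summed markers of other cell types differed between the libraries, and the sums rest on a few genes each. In bulk RNA, fewer cells of a type and less RNA per cell cannot be told apart. Fibre markers (8 of 8 detected in both) summed to 143113 TPM in replicate 1 and 166648 TPM in replicate 2, fibroblast markers (7 of 7) to 7371 and 5001, endothelial markers (5 of 7) to 522 and 259, and macrophage markers (4 of 6) to 633 and 270. Smooth muscle markers (3 of 5) summed to 391 and 635 TPM, and globins (4 of 4) to 3292 and 3629. Gene by gene, relative to the median gene, 53.4% of all genes tested were higher in replicate 2. Among the markers this held for 7 of 8 fibre, 3 of 7 fibroblast, 3 of 7 endothelial and 1 of 5 macrophage markers tested. It also held for 4 of 5 smooth muscle markers and 3 of 4 globins. The endothelial sum held Pecam1 at 182 TPM in replicate 1 and 0.06 TPM in replicate 2, a gene singled out after its values were seen. The part of these differences in the muscle shares was not tested.

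Heart and brown fat, tissues that also use the muscle forms, were checked by their markers. Of 9 heart markers 2 were detected in both, Sln and Myl2, which skeletal muscle also expresses. Nppa, Nppb, Tnni3, Ryr2 and Nkx2-5 had 0 counts in both libraries, Myh6 had 0.18 and 0.10 TPM, and Myl7 had 0 and 1 counts. Of 7 brown fat markers Cpt1b, the muscle carnitine transferase, was detected in both, and Ucp1, Dio2, Elovl3, Otop1 and Ppara had 0 counts in both. Cidea had 2590 counts in replicate 1 and 0 in replicate 2, and at this input a count of 0 does not show absence. The list summed to 343 TPM in replicate 1 and 223 TPM in replicate 2, and its part in the shares was not tested. The 8 adipocyte markers summed to 2513 TPM in replicate 1 and 1041 TPM in replicate 2, with 4 detected in both. Much of that difference lay in Cfd, named after its values were seen, at 1071 and 39.3 TPM. Of the 5 adipocyte markers tested, 1 was higher in replicate 2 and 4 in replicate 1. Of all genes tested, 53.4% were higher in replicate 2.

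Set against the other subunits, the summed paralogue sets lay in the range of the single subunits or somewhat above it. Each nuclear subunit is present once per complex as a protein, and RNA levels need not follow protein copies. With that limit, the RNA sum over a set was placed beside single subunits that have no heart and muscle form. Of these, Cox6b1, has a paralogue, Cox6b2, with 46.4 TPM in replicate 1 and 0 in replicate 2, which is not added to it. The COX4 set summed to 1065 ± 40.3 TPM, COX6A to 1759 ± 453, COX7A to 771 ± 287 and COX8 to 1469 ± 1135. The 6 single subunits ran from Cox7b at 521 ± 292 TPM to Cox6b1, a subunit on the intermembrane side, at 1522 ± 440. In replicate 1 the 4 sets spanned 2.53-fold, from 568 TPM for COX7A to 1439 TPM for COX6A, and in replicate 2 they spanned 2.33-fold, from 974 TPM for COX7A to 2271 TPM for COX8.

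COX8 and COX4 differed most in how the sets held between libraries. The COX8 sum was 3.41-fold higher in replicate 2, from 666 to 2271 TPM, and the COX4 sum 1.06-fold. Adding Cox7a2l to COX7A brought that family to 916 TPM in replicate 1 and 1130 in replicate 2.

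**Figure D4:**
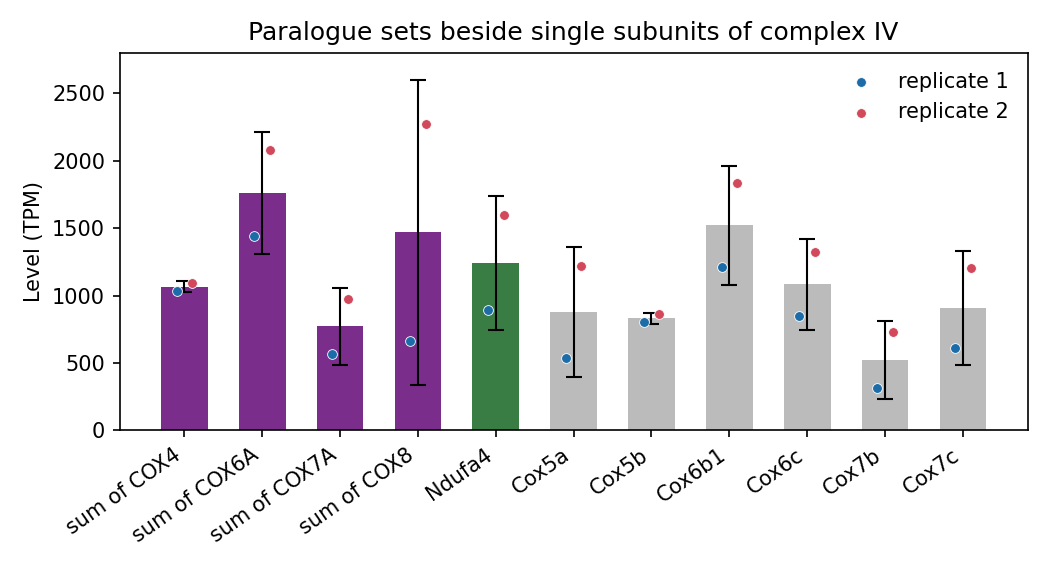
Summed level in TPM of each paralogue set (purple), of Ndufa4 (green) and of 6 subunits without a muscle form (grey), with bars for the mean, points for the libraries and error bars for 1 SD (n = 2). The sums for COX7A and COX4 are the lowest of the 4 sets at 771 and 1065 TPM, and COX8 has the widest spread.

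The rest of the complex was read from lists of named genes. Of 13 other subunits 9 were detected in both libraries, and mt-Co1, mt-Co2 and mt-Co3, the core subunits from mitochondrial DNA, were the highest at 6423 ± 801, 4296 ± 498 and 2941 ± 589 TPM. Their reads may be shared with copies of mitochondrial DNA in the nucleus. Of 10 other subunits tested, 8 were higher in replicate 2, against 53.4% of all genes tested, and 3 of these by at least 2-fold, against 35.4%. In replicate 1, 1 was higher by at least 2-fold, against 28.7%, and the median over the 10, as log2 of replicate 2 over replicate 1, was 0.58. The testis forms Cox7b2 and Cox8c had 0 counts in both libraries. Cox6b2, another testis form, named after its values were seen, had 514 counts in replicate 1 and 0 in replicate 2.

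Assembly factors of complex IV summed to 919 TPM in replicate 1 and 1666 TPM in replicate 2 over the whole list, below the 1211 and 1832 TPM of the subunit Cox6b1. Of 23 factors 9 were detected in both libraries, led by Cox14, which acts in making the core subunit Cox1, at 352 ± 46.8 TPM, the copper chaperone Cox17 at 193 ± 130, and Higd2a at 152 ± 102. Of 22 factors tested 17 were higher in replicate 2, against 53.4% of all genes tested, and 15 of them by at least 2-fold, against 35.4%. In replicate 1, 2 of the 22 were higher by at least 2-fold, against 28.7%. Many of the factors higher in replicate 2 had 0 or a few counts in replicate 1. Such a factor was Sco1, a copper chaperone of the core picked here after its values were seen, with 0 and 1850 counts.

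Of 16 regulators of mitochondrial or muscle genes 8 were detected in both libraries. The highest were the muscle factors Myog at 233 ± 45.1 TPM, Mef2c at 143 ± 31.4 and Mef2a at 81.1 ± 37.9. Ppargc1a, a coactivator of mitochondrial genes also picked after its values were seen, had 3117 counts in replicate 1 and 0 in replicate 2. Esrra, Esrrg, Nrf1, Gabpb1 and Yy1 had 0 counts in both. RNA may be missed at this input, so a count of 0 does not show that a regulator was absent from the tissue.

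At the transcript level the members were simple. Of the 10 genes 6 have 1 transcript in the tables, and 16 of the 19 transcripts had at least 5 counts in a library. Cox6a1-201 held 99.7 ± 0.170% of the TPM of Cox6a1 and Cox7a2l-201 held 99.9 ± 0.0707% of that of Cox7a2l. Cox4i1 was the gene with a visible second form. Its coding transcript Cox4i1-201 held 95.8% of the TPM in replicate 1 and 91.7% in replicate 2. Transcripts annotated as keeping an intron held 4.17% and 8.28%, or 43.2 and 90.6 TPM. Of this, Cox4i1-203, a short model of 438 bases with 281 and 859 expected counts, held 33.9 TPM in replicate 1 and 81.1 TPM in replicate 2, and Cox4i1-204 held 9.11 and 9.03 TPM.

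Paralogues of a pair differ enough in sequence to be told apart by reads. The longest run of identical bases between the transcripts of a pair was 14 for Cox4i1 and Cox4i2, 12 for Cox6a1 and Cox6a2, 12 for Cox7a1 and Cox7a2 and 10 for Cox8a and Cox8b. In aligned stretches of at least 100 bases, Cox4i2 was 68.9% identical to Cox4i1 over 344 bases and Cox7a1 was 71.1% identical to Cox7a2 over 142 bases.

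Copies elsewhere in the genome were searched among annotated transcripts. Transcripts of 11 other genes matched a member over at least 100 bases at an identity of at least 80%, and 8 of them had a row in the tables. The reads of the other 3 are not known here, among them AC148174.2, a transcribed pseudogene 92.7% identical to Cox6a1 over 496 bases. Gm6969, a processed pseudogene 97.7% identical to Cox7a2l over 342 bases, had 14.9 and 8.30 expected counts. Emc8 overlaps the start of Cox4i1 on the opposite strand over 154 bases and had 1763 and 978 counts. Whether strand was used in counting is not given in the sources used here, so reads in that overlap cannot be told apart with certainty. The other 6 genes with a row, all pseudogenes, had 0 counts in both libraries.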

How the data were processed

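Both libraries were analysed from a gene table and a transcript table each. Expected counts, estimated reads per row, were deposited by the authors without normalization. TPM values were deposited by the authors scaled to a fixed sum over all rows, spike-ins included, and the percent of a gene's TPM on each transcript was also deposited. The column names are of the RSEM kind, per the file headers, and the genome was mm10 with the GENCODE M4 annotation, per the notes deposited beside the tables. The aligner is not given in the sources used here. Symbols and positions came from GENCODE M21 on GRCm38, matched by identifier without version. The members, the lists and the comparisons were chosen with earlier results of these data known.

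The rule for named genes took the 10 members, the 3 highest and 3 lowest other subunits by mean TPM, the 3 highest assembly factors and regulators, and copies with at least 5 counts. Other genes named were chosen after their values were seen or are markers of a tissue. Cell type lists covered fibre, heart, brown fat, adipocyte, fibroblast, endothelium, macrophage, smooth muscle and erythroid markers. Log ratios used a pseudocount of 1 on TPM. Ratios between libraries were centred on the median of genes detected in both. Effective length was the length less 99 bases. Copies were searched with blastn 2.17.0 among M21 transcripts. The self-made calculations were tested on simulated counts with sampling noise only. Those tests do not cover loss or amplification of RNA at this input. edgeR 4.0.16 in R 4.3.3 served for TMM factors of an alternative scaling, with no test. Other steps used Python 3.11.15, numpy 2.4.6, pandas 2.3.3, scipy 1.17.1 and matplotlib 3.10.9.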

Additional observations from a re-analysis of the deposited data

How the results depend on the processing

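Of 92 alternative values over 20 results, 83 kept their direction and call or stayed within 1 SD. Of the 92, 32 left out a replicate, and with n = 2 a single library always lies within 1 SD of the mean. Others could not move either, such as the share of Cox4i1, at 100% in every view because Cox4i2 had 0 counts. The count of 83 is therefore not a measure of how robust the results are. Without length adjustment the share of Cox7a1 was 24.0% and that of Cox8b 46.3%, and the log2 ratios became −1.68 for Cox7a1 over Cox7a2, now beyond 2 SD, and −0.22 for Cox8b over Cox8a, now below 0. These changes follow from the lengths of the RNAs. With Cox7a2l in the set the share of Cox7a1 was 33.0%. Per full length the COX4 sum was 1108. With spike-in centring 8 members were higher in replicate 2 by at least 2-fold and 0 in replicate 1, and the median log2 ratio of replicate 1 to replicate 2 was −1.66. The shift follows from the larger spike-in share of replicate 1. Leaving out a replicate gave shares of 61.1 to 67.4% for Cox6a2, 37.9 to 49.2% for Cox7a1 and 51.2 to 66.9% for Cox8b. Ratios between the libraries need both, so no replicate could be left out there. No paired analysis was possible because there is 1 group. RNA present in a few molecules may be missed at this input, which limits what a count of 0 shows.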
